A study of Mus musculus with 24 samples.

Results

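The IL-22, IL-17 and lymphotoxin axis was followed through 9 genes, of the 39056 in the deposited count table: the ligands Il22, Il17a, Il17f, Lta and Ltb, and the receptor genes Il23r, Il22ra1, Il22ra2 and Ltbr. They were picked by name as parts of the pathway, and each was read in all 24 libraries. RNA was sequenced from cells of mouse ileum without Peyer's patches, after live cells were sorted into hematopoietic (CD45+) cells and the remainder (CD45-), in which epithelium, endothelium and stroma were mixed. Epithelial cells entered as 50% of the epithelial preparation, mixed with the lamina propria cells. Each fraction came from mice of 4 genotypes, with 3 libraries for each genotype.

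All groups were C57BL/6 mice, 9 to 10.3 weeks old, that carried Il4ra flanked by loxP sites on both alleles, the Hoil1+/+ controls included. Hoil1+/+Il4raf/f and Hoil1-/-Il4raf/f mice had no Cre. Hoil1+/+Il4raΔIEC and Hoil1-/-Il4raΔIEC mice also carried Vil1-cre, which acts in intestinal epithelial cells, so Il4ra stays in all other cells. The Hoil1-/- allele is Rbck1tm1Kiwa, a model of partial deficiency, and no treatment was given. Male and female mice were used. The study gives each library as the sample of a single mouse, and the labels do not say which CD45+ and CD45- libraries came from the same one.

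Totals ranged from 14938629 to 76807504 counts in CD45+ libraries and from 6028275 to 68345191 counts in CD45- libraries. A level is given as CPM, the count scaled to a common library total. In a library with no count for a gene, 3 counts were taken as the highest level that could have been missed, which is 0.0439 to 0.498 CPM over the CD45- libraries and covers counting error only. The study removed 3 libraries as outliers: CD45+ Hoil1-/-Il4raf/f replicate 1, CD45+ Hoil1-/-Il4raΔIEC replicate 3 and CD45- Hoil1-/-Il4raf/f replicate 3. Their levels are printed, and the tests use the other 10 CD45+ and 11 CD45- libraries unless all libraries are named.

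IL-23, made by dendritic cells and macrophages, acts through a receptor that includes IL-23R on type 3 innate lymphoid cells and Th17 and gamma delta T cells, which release IL-22, IL-17A and IL-17F. IL-22 signals through IL-22RA1 and IL-10RB on epithelial cells and induces antimicrobial proteins such as REG3B and REG3G, whereas IL-22RA2 is a secreted protein that binds IL-22 and blocks it. Lymphotoxin alpha and beta form a membrane ligand on lymphocytes that engages the lymphotoxin beta receptor on stromal, epithelial and myeloid cells and supports intestinal lymphoid tissue.

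The set of RefSeq promoters (GRCm38.p6) used here held sequence before the transcript start for 8 of the 9 genes, all except Il22ra2. The 250 bases before the start are shown for Il17a and Il17f, which lie near each other on chromosome 1, for Il23r, and for Lta, each 5′ to 3′ on the strand of the gene. Capitals mark matches, on either strand, to the nuclear receptor element AGGTCA, the STAT motif TTCNNNGAA and the AP-1 motif TGANTCA, or to the NF-kappaB consensus, and no matches overlapped.
Il17a, chr1:20730655-20730904, plus strand: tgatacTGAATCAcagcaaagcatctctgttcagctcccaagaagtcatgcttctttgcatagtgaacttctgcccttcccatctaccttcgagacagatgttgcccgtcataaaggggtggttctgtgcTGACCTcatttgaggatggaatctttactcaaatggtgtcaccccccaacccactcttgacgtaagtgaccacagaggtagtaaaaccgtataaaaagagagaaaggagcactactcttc
Il17f, chr1:20784271-20784520, minus strand: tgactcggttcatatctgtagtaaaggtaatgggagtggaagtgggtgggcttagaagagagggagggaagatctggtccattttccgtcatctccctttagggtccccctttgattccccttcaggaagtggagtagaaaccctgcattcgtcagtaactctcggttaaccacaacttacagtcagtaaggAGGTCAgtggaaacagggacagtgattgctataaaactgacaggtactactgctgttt
Il23r, chr6:67491856-67492105, minus strand: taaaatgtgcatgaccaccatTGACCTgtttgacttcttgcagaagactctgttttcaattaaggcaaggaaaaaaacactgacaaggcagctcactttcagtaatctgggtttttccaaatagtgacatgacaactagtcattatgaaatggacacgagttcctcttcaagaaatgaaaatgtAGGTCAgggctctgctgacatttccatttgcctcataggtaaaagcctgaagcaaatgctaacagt
Lta, chr17:35205352-35205601, minus strand: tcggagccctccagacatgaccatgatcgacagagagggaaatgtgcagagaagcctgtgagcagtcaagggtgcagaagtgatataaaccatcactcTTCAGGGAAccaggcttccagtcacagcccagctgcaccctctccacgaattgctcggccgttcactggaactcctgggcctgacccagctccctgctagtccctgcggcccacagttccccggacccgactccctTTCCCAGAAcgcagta
A nuclear receptor element began 120 bases before the start of Il17a, 58 bases before that of Il17f, and 66 and 229 bases before that of Il23r. Of 32851 promoters of this length, 14% held this motif, 7.02% the STAT motif, 6.75% the AP-1 motif and 3.9% the NF-kappaB consensus. Lta held STAT matches that began 152 and 16 bases before its start. Of the promoters not shown, Ltb held a STAT match 172 and an NF-kappaB match 87 bases before its start and Il22ra1 an AP-1 match 222 bases before, and Il22 and Ltbr held no match. A match describes the letters and does not show a bound site.

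The labels were checked first on the targeted genes. Rbck1, which encodes HOIL1, was between 3.67 and 15.5 CPM in the 6 CD45+ Hoil1-/- libraries and between 54.0 and 169 CPM in the 6 CD45+ Hoil1+/+ libraries, with no overlap. In CD45- cells it was at most 8.71 CPM in Hoil1-/- libraries and at least 70.9 CPM in Hoil1+/+ libraries. Its log2 difference was -3.81 ± 0.32 (SE) in CD45+ cells (adjusted p = 0.0069, edgeR) and -4.23 ± 0.33 in CD45- cells (adjusted p = 0.00106, edgeR). Over all CD45- libraries no gene passed for Hoil1, so the CD45- call was lost there, although the levels did not overlap. Il4ra did not mark the ΔIEC genotype: in CD45- cells the difference between libraries labelled ΔIEC and f/f was 0.02 ± 0.35 (log2, SE; adjusted p = 1.00, edgeR). In CD45+ cells Il4ra was higher in ΔIEC libraries by 1.09 ± 0.28 and did not pass (log2, SE; adjusted p = 0.283, 0.00288 unadjusted, edgeR). A count over a whole gene does not separate deleted from kept exons, and CD45- libraries also hold non-epithelial cells. Il4ra counts therefore do not check the ΔIEC label, and directions between ΔIEC and f/f are given for libraries so labelled. Ptprc, which encodes CD45, was between 180 and 845 CPM in CD45+ libraries and between 0 and 16.3 CPM in CD45- libraries.

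The sort split the 9 genes by fraction. In CD45+ against CD45- cells, all 9 genes passed the threshold (edgeR, adjusted p from 2.74e-08 to 0.000806), 7 higher and 2 lower in CD45+ cells, where 49.6% of 18778 tested genes passed, 24.5% higher and 25.1% lower. Il22, Il17a, Il17f, Il23r, Il22ra2, Lta and Ltb were higher in CD45+ cells, and Il22ra1 and Ltbr were higher in CD45- cells. Il17a, Il17f, Il23r and Il22ra2 did not enter the tests within CD45- cells, so they entered this test through their CD45+ counts. For these genes passing was largely set by the filter, and no conclusion is drawn from the tally. Most fitted folds are not given because a group was at 0 counts, and ratios of mean CPM are given instead.

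Il17a and Il17f, the ligands of the IL-17 receptor, were at 0 counts throughout the 12 CD45- libraries. Their means in the CD45+ libraries of the tests were 51.5 ± 42.4 and 8.73 ± 8.48 CPM (SD, n = 10), so they were at least 221-fold and 37.5-fold higher there, with the floor taken as the mean of 3 counts per CD45- library. For Il17f that call was lost without CD45+ Hoil1-/-Il4raf/f replicate 2 (adjusted p = 1.00, edgeR), which left that group with 1 library at 0 counts. Ltb averaged 97.1 ± 50.8 CPM in CD45+ cells and 0.941 ± 1.71 CPM in CD45- cells (SD, n = 10 and 11), a ratio of 103. Ltbr went the other way by a smaller step: it averaged 43.6 ± 11.9 CPM in CD45+ cells and 137 ± 23.4 CPM in CD45- cells, a log2 difference of -1.35 ± 0.12 (SE; adjusted p = 1.81e-07, edgeR), and the lowest CD45- library, at 91.7 CPM, was above the highest CD45+ library, at 61.7 CPM.

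Per kilobase of exon, the levels over the 12 CD45+ libraries ranked Ltb, Il17a, Ltbr, Il22, Il22ra2, Il17f, Lta, Il23r and Il22ra1 from high to low. Most neighbours in that order were not well separated: from Ltb down to Lta the higher gene of a pair was above the lower in 5 to 8 of 12 libraries, Il17a above Ltbr in 6 and Ltbr above Il22 in 7. Lta was above Il23r in 9 of 12 libraries, and Il23r above Il22ra1 in 10 and below it in none. In CD45- cells Ltbr was above Il22ra1 in 12 of 12 libraries, and both were above the other 7 genes.

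**Figure D1:**
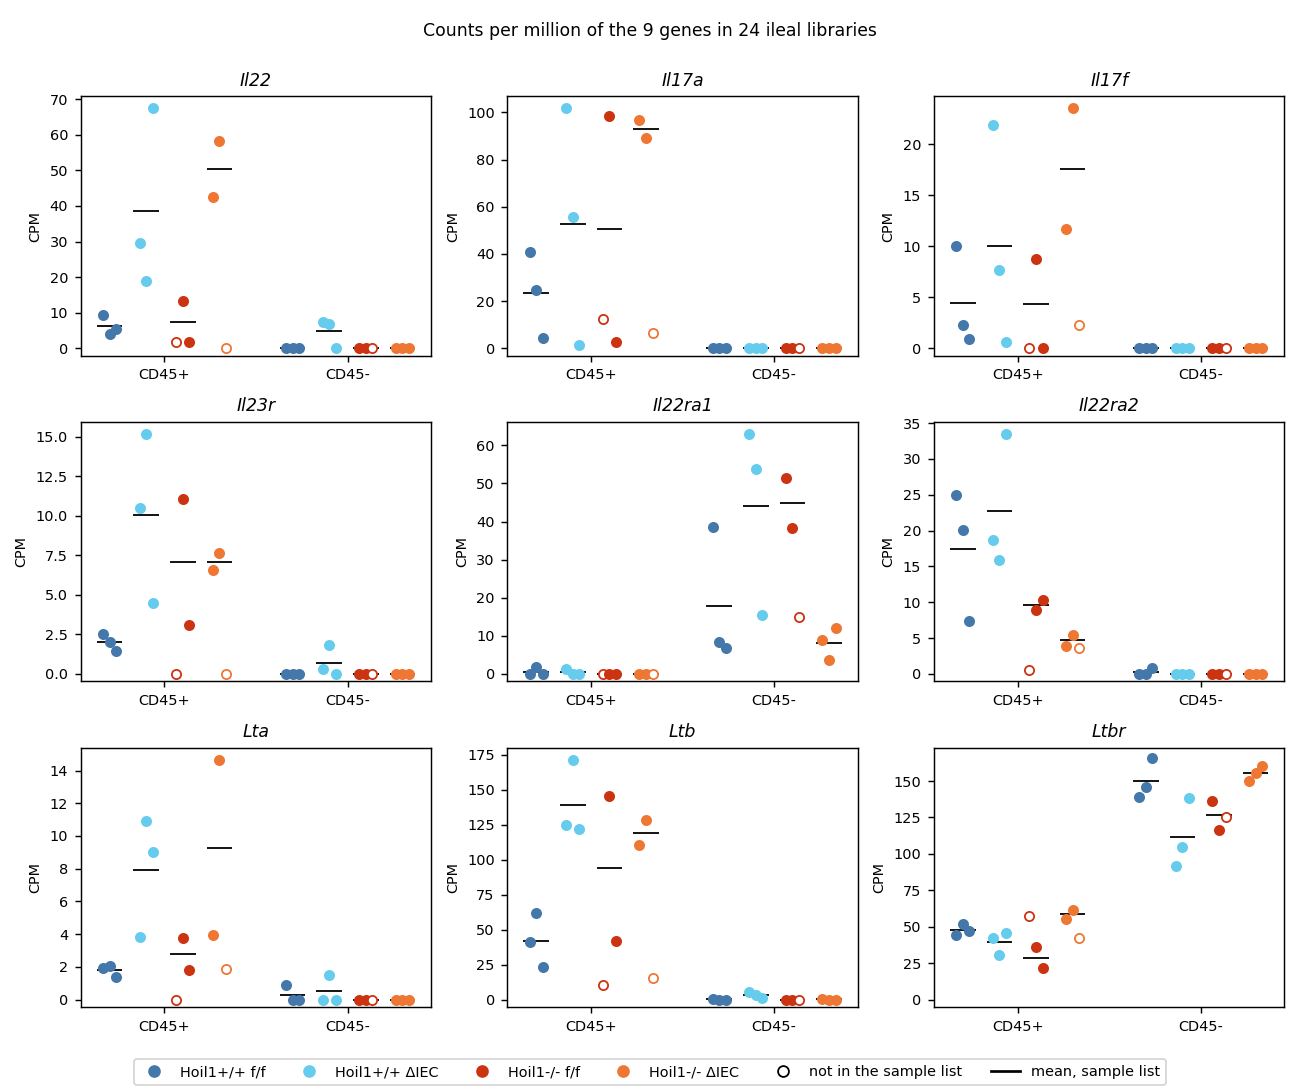
Level of each of the 9 genes in CPM (linear axis) in the CD45+ and CD45- libraries, 1 point per library, colored by genotype, with open points for the 3 libraries the study removed and bars for the mean of the others. Il17a and Il17f sit at 0 in all 12 CD45- libraries, and the CD45- libraries of Ltbr, from 91.7 to 166 CPM, all lie above its CD45+ libraries.

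Il22, the cytokine that acts on epithelium, was high in CD45+ libraries labelled ΔIEC and low in those labelled f/f. Replicates 1, 2 and 3 held 9.36, 4.02 and 5.39 CPM in Hoil1+/+Il4raf/f mice and 29.5, 18.8 and 67.5 CPM in Hoil1+/+Il4raΔIEC mice. In Hoil1-/-Il4raf/f mice they held 1.80 (removed by the study), 13.4 and 1.63 CPM, and in Hoil1-/-Il4raΔIEC mice 42.5, 58.2 and 0 CPM, the last in a library the study removed. Among the 10 libraries of the tests, every ΔIEC library was above every f/f library, which held for 3.35% of tested genes in that direction, and the removed library at 0 CPM breaks the pattern. The difference was 2.39 ± 0.57 (log2, SE), or 5.23-fold, and did not pass (adjusted p = 0.252, 0.00203 unadjusted, edgeR). Leaving out single libraries gave 1.99 to 3.26, the highest without Hoil1-/-Il4raf/f replicate 2, and adjusted p of at least 0.129. The call depends on the test, with adjusted p of 0.00718 by edgeR's likelihood ratio test and 0.00186 by DESeq2. Between Hoil1-/- and Hoil1+/+ mice the difference in Il22 was 0.08 ± 0.54 (log2, SE; adjusted p = 1.00, edgeR), and it was -0.42 over all 12 libraries.

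Between ΔIEC and f/f libraries of CD45+ cells 1 of 17029 genes passed (0.00587%), and none of the 9 did. Il22, Lta and Ltb were under 0.05 before adjustment, as were 10.6% of all tested genes. B cell markers moved in the same libraries: 6 of 8 had an unadjusted p under 0.05, with a median log2 difference of 1.97 against f/f, and 5 of 6 plasma cell markers had one with a median of -1.18, none of either list passing after adjustment. Of 13 type 3 lymphocyte genes 6 had one, Batf, Il1r1, Rora and Ccr6 among them with estimates above 0 and Tmem176a with one below 0. Of 7 dendritic cell markers 3 had one, Ccr7 above 0 and Clec9a and Xcr1 below 0. The summed B cell markers were between 246 and 873 CPM in the f/f libraries and between 329 and 1526 CPM in the ΔIEC libraries, removed libraries included. The defining marker Ms4a1 was between 3.18 and 60.5 CPM in f/f libraries and between 16.1 and 112 CPM in ΔIEC libraries. The part of these cells in the Il22, Lta and Ltb values was not tested, and in bulk RNA fewer cells of a type and less RNA per cell cannot be told apart.

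Il17a and Il17f varied widely between libraries of the same group. Il17a was at 40.9, 24.5 and 4.26 CPM in CD45+ Hoil1+/+Il4raf/f libraries and at 102, 55.5 and 1.27 CPM in Hoil1+/+Il4raΔIEC libraries. It was at 12.5 (removed), 98.6 and 2.66 CPM in Hoil1-/-Il4raf/f libraries and at 96.6, 89.2 and 6.60 (removed) CPM in Hoil1-/-Il4raΔIEC libraries. With the removed libraries, each genotype held both a library under 7 CPM and one over 40 CPM, so the groups overlapped throughout. The Hoil1 difference in Il17a was 0.82 ± 1.01 (log2, SE; adjusted p = 0.936, edgeR), and without CD45+ Hoil1-/-Il4raf/f replicate 2 it was -1.06.

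Il17f, which forms dimers with IL-17A, ran lower in the same libraries. It was at 10.1, 2.28 and 0.938 CPM in Hoil1+/+Il4raf/f, 21.9, 7.69 and 0.570 CPM in Hoil1+/+Il4raΔIEC, 0 (removed), 8.72 and 0 CPM in Hoil1-/-Il4raf/f and 11.7, 23.5 and 2.22 (removed) CPM in Hoil1-/-Il4raΔIEC libraries. Where both had counts, Il17a held 2.22 to 11.3 counts for each count of Il17f. The Hoil1 difference in Il17f was 0.17 ± 1.18 (log2, SE; adjusted p = 1.00, edgeR), and it had no stable direction: it was -0.34 over all libraries and below 0 in 5 of 10 fits that left out 1 library. Without Hoil1-/-Il4raf/f replicate 2, which left that group at 0 counts, the fitted value was -5.09.

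Il22 and Il17a were high together in several libraries and parted in others. Of the 5 CD45+ libraries with the most Il22 and the 5 with the most Il17a, 4 were shared. Hoil1+/+Il4raΔIEC replicate 3 had the most Il22, at 67.5 CPM, and the least Il17a, at 1.27 CPM. Hoil1-/-Il4raf/f replicate 2 had 98.6 CPM of Il17a and 13.4 CPM of Il22. Over the 12 CD45+ libraries Pearson's r of the log2 levels was 0.75 for Il17a with Il17f, 0.30 for Il17a with Il22 and 0.80 for Il22 with Il23r, as a description of libraries that also differ in cell makeup and depth.

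**Figure D2:**
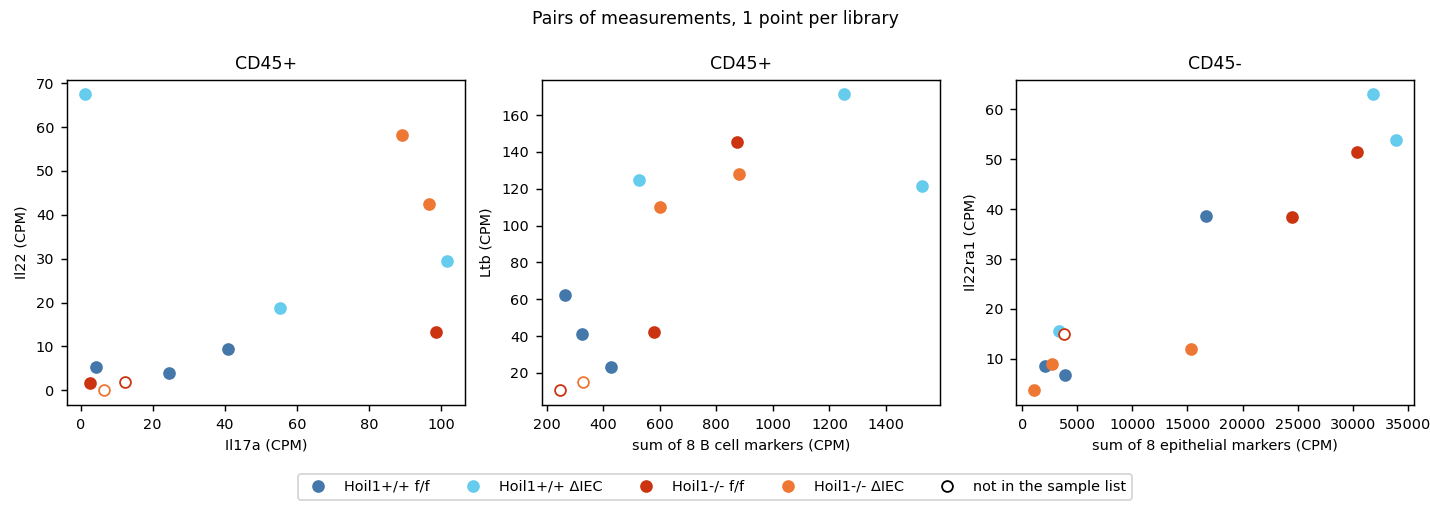
Each point is 1 library, colored by genotype, open where the study removed it: Il22 against Il17a in CD45+ cells, Ltb against the sum of 8 B cell markers in CD45+ cells, and Il22ra1 against the sum of 8 epithelial markers in CD45- cells, all in CPM on linear axes. The library with the most Il22, at 67.5 CPM, has the least Il17a, and CD45- libraries with epithelial sums from 24518 to 33942 CPM hold 38.4 to 63.0 CPM of Il22ra1. The CD45- library with a sum of 15353 CPM holds 11.9 CPM.

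Il22 was also counted in 2 CD45- libraries, both Hoil1+/+Il4raΔIEC. Replicates 1 and 2 held 7.24 and 6.93 CPM, and the other 10 CD45- libraries held none. These 2 libraries also had 5.04 and 3.46 CPM of Ltb and the only Il23r counts of the CD45- libraries, 3 and 15. Cxcr6 was at 1.65 and 5.20 CPM in them, Gata3 at 2.02 and 8.29 CPM, and Ccr6 at 0 and 2.35 CPM. Ptprc was at 1.56 and 3.22 CPM there, so there were 465 and 215 counts of Il22 for 100 counts of Ptprc, against at most 12.8 in a CD45+ library. Cd3e was at 1.83 and 2.47 CPM and Il17a at 0 in both. The source of these counts was not tested.

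Il23r, the receptor through which IL-23 acts, was at 2.55, 2.04 and 1.43 CPM in CD45+ Hoil1+/+Il4raf/f libraries and at 10.5, 15.2 and 4.48 CPM in Hoil1+/+Il4raΔIEC libraries. It was at 0 (removed), 11.1 and 3.07 CPM in Hoil1-/-Il4raf/f and at 6.58, 7.63 and 0 (removed) CPM in Hoil1-/-Il4raΔIEC libraries. Within Hoil1+/+ mice the ΔIEC libraries were all above the f/f libraries, as for 14.5% of tested genes, and within Hoil1-/- mice the groups overlapped. Neither effect passed: the Hoil1 difference was 0.53 ± 0.41 and the Il4ra difference 0.83 ± 0.41 (log2, SE; adjusted p = 0.842 and 0.485, edgeR).

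Il22ra2, the secreted inhibitor of IL-22, had the smallest p of the 9 genes for the Hoil1 effect in CD45+ cells. It was at 25.0, 20.1 and 7.31 CPM in Hoil1+/+Il4raf/f and at 18.7, 15.9 and 33.5 CPM in Hoil1+/+Il4raΔIEC libraries. It was at 0.515 (removed), 8.97 and 10.3 CPM in Hoil1-/-Il4raf/f and at 3.92, 5.42 and 3.64 (removed) CPM in Hoil1-/-Il4raΔIEC libraries. All Hoil1-/- libraries were at or below 10.3 CPM and 5 of 6 Hoil1+/+ libraries were at or above 15.9 CPM, and the groups overlapped through Hoil1+/+Il4raf/f replicate 3. The difference was -1.63 ± 0.38 (log2, SE), 3.10-fold lower in Hoil1-/- mice, and did not pass (adjusted p = 0.516, 0.00176 unadjusted, edgeR). In this comparison 1 of 17029 genes passed (0.00587%), none of them among the 9, and 5.85% had an unadjusted p under 0.05.

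The call for Il22ra2 depended on the test. The adjusted p was 0.0202 by edgeR's likelihood ratio test and 0.0114 by DESeq2, and a two-sided exact permutation test over the 10 libraries gave p = 0.0286, unadjusted over the 16 such tests made. Over all 12 libraries the exact test gave p = 0.00649, while edgeR gave a log2 difference of -1.86 that did not pass (adjusted p = 0.99992). Leaving out single libraries moved the log2 difference between -1.83 and -1.38. Of the defining markers of dendritic cells, which are known to make Il22ra2, Flt3 was at -0.12 ± 0.38 and Zbtb46 at -0.87 ± 0.29 (log2, SE; adjusted p = 1.00 and 0.783, edgeR), the only one of 7 dendritic cell markers with an unadjusted p under 0.05. Zbtb46 did not mark dendritic cells alone here, since it was between 5.45 and 70.7 CPM in CD45- libraries and at most 13.3 CPM in CD45+ libraries. In the same test 4 of 8 B cell markers, with a median log2 difference of 1.02, and 2 of 6 stromal markers, with a median of 0.82, had an unadjusted p under 0.05. None of these passed after adjustment. The part of dendritic, B or stromal cells in the Il22ra2 values was not tested.

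**Figure D3:**
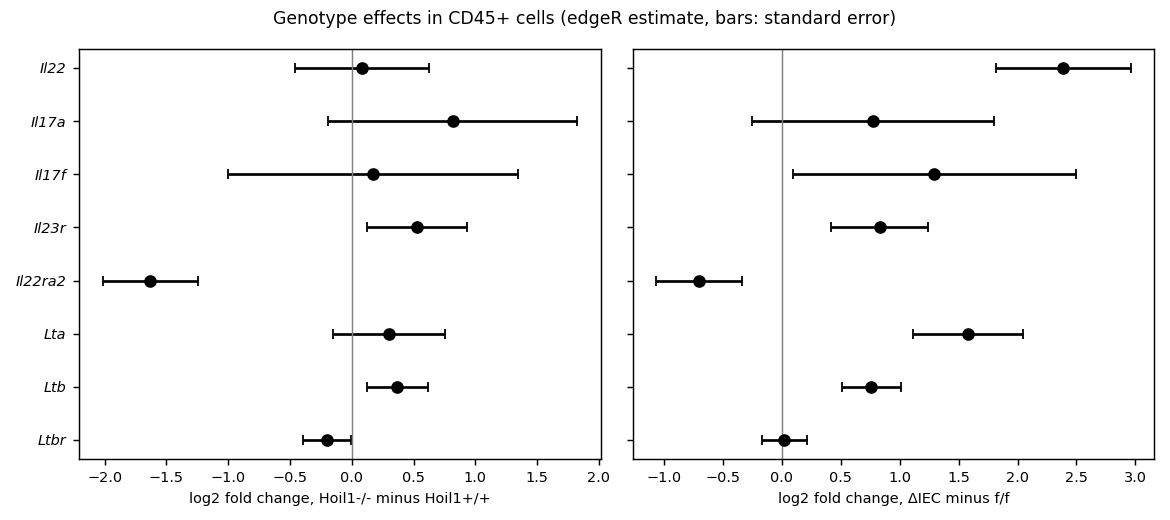
Log2 differences (linear axis) with standard errors from edgeR for 8 genes in CD45+ cells, Hoil1-/- minus Hoil1+/+ on the left and ΔIEC minus f/f on the right. Il22ra2 lies lowest for Hoil1, at -1.63, and Il22 highest for Il4ra, at 2.39, and no gene passed the adjusted threshold; Il22ra1 is left out because it had no counts in 2 of the groups.

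Il22ra1, the signaling chain of the IL-22 receptor, was read in CD45- cells, since only 2 CD45+ libraries had counts, at 1.71 and 1.35 CPM. In CD45- cells it was at 38.6, 8.48 and 6.74 CPM in Hoil1+/+Il4raf/f and at 63.0, 53.8 and 15.5 CPM in Hoil1+/+Il4raΔIEC libraries. It was at 51.4, 38.4 and 15.0 (removed) CPM in Hoil1-/-Il4raf/f and at 8.94, 3.73 and 11.9 CPM in Hoil1-/-Il4raΔIEC libraries. High and low libraries occurred in both Hoil1 genotypes, and the Hoil1 difference was -0.60 ± 0.59 (log2, SE; adjusted p = 1.00, edgeR). Without CD45- Hoil1+/+Il4raf/f replicate 1 it was 0.073, so it had no stable direction.

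The epithelial share of the libraries differed too, and its part in the Il22ra1 values was not tested. The summed level of 8 epithelial markers ran from 1092 to 33942 CPM over the 12 CD45- libraries, and Epcam, a defining marker, from 195 to 1320 CPM. Libraries with close sums could differ in Il22ra1. Hoil1+/+Il4raf/f replicate 1, with a sum of 16645 CPM, held 38.6 CPM, and Hoil1-/-Il4raΔIEC replicate 3, with 15353 CPM, held 11.9 CPM. Apoa1 alone gave 9320 and 8700 CPM of these sums, so close sums do not show a close epithelial share. In the same libraries Vil1 was at 758 and 464 CPM and Epcam at 788 and 680 CPM. For each 100 counts of Vil1, the other defining marker, there were 2.36 to 6.46 counts of Il22ra1, and for each 100 counts of Epcam 1.30 to 6.04. The 5 genes most like Il22ra1 over these libraries were Btnl1, Prr15, Abcg8, Dock5 and Tmem117, with Pearson's r from 0.975 to 0.985.

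In CD45- cells 5 of the 9 genes entered the tests, and none passed for Hoil1, where 0.0182% of 16453 genes did, or for Il4ra, where 0.0% did. For Hoil1 1 of the 5, Ltb, had an unadjusted p under 0.05, as did 5.28% of all genes, and its CD45- libraries held at most 5.04 CPM. Ltbr, the receptor for lymphotoxin on stromal and epithelial cells, was at 139, 146 and 166 CPM in Hoil1+/+Il4raf/f, 91.7, 104 and 138 CPM in Hoil1+/+Il4raΔIEC, 137, 117 and 125 (removed) CPM in Hoil1-/-Il4raf/f and 150, 155 and 160 CPM in Hoil1-/-Il4raΔIEC libraries. Its Hoil1 difference there was 0.15 ± 0.16 (log2, SE; adjusted p = 1.00, edgeR).

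Ltb, the membrane anchor of the lymphotoxin ligand, followed a pattern close to that of Il23r in CD45+ cells. It was at 41.0, 62.1 and 23.4 CPM in Hoil1+/+Il4raf/f and at 125, 171 and 122 CPM in Hoil1+/+Il4raΔIEC libraries, again with no overlap (14.5% of tested genes). It was at 10.7 (removed), 146 and 42.2 CPM in Hoil1-/-Il4raf/f and at 110, 128 and 15.3 (removed) CPM in Hoil1-/-Il4raΔIEC libraries, which overlapped. The Il4ra difference was 0.76 ± 0.25 and the Hoil1 difference 0.37 ± 0.25 (log2, SE; adjusted p = 0.378 and 0.815, edgeR).

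Lta, the soluble partner, ran lower in the same libraries. It was at 1.93, 2.07 and 1.39 CPM in Hoil1+/+Il4raf/f, 3.82, 10.9 and 9.02 CPM in Hoil1+/+Il4raΔIEC, 0 (removed), 3.75 and 1.82 CPM in Hoil1-/-Il4raf/f and 3.92, 14.7 and 1.88 (removed) CPM in Hoil1-/-Il4raΔIEC libraries. In CPM the 5 ΔIEC libraries of the tests were all above the 5 f/f libraries, as for 3.35% of tested genes. The gap was narrow, 3.82 CPM in Hoil1+/+Il4raΔIEC replicate 1 against 3.75 CPM in Hoil1-/-Il4raf/f replicate 2. The TMM scaling factors of these libraries in the tests were 1.16 and 1.11, which puts the f/f library above the ΔIEC library. The separation therefore held for unscaled CPM only, and the removed ΔIEC library at 1.88 CPM breaks it too. The difference was 1.58 ± 0.47 (log2, SE; adjusted p = 0.336, 0.00706 unadjusted, edgeR), and the adjusted p was 0.0411 by DESeq2.

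Likeness over the 12 CD45+ libraries, by Pearson's r of log2 levels among 16060 genes, placed Ltb with Il23r at 0.93 and with Lta at 0.83. Among the genes most like Ltb were Tcp11l2, Foxo1, Nfatc3 and Satb1 (r from 0.952 to 0.969), and those most like Lta were Dusp4, Mreg, Bcl11a, Cx3cl1 and Ccr6 (r from 0.961 to 0.969). For Il22 they were Gem, Herc4, Siglecg, Zfp667 and Il1r1 (r from 0.935 to 0.959), and the nearest to Il17a was Il21 (r = 0.912). Ltbr stood with Ptpro, Mmp9, Tlr13 and C5ar1 (r from 0.931 to 0.959) and had r = -0.56 with Ltb. These genes share libraries that differ in cell makeup, and no test was made.

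Ltbr in CD45+ cells was at 44.0, 51.9 and 47.3 CPM in Hoil1+/+Il4raf/f, 42.5, 30.4 and 45.6 CPM in Hoil1+/+Il4raΔIEC, 57.3 (removed), 36.04 and 21.3 CPM in Hoil1-/-Il4raf/f and 55.3, 61.7 and 42.4 (removed) CPM in Hoil1-/-Il4raΔIEC libraries. It had the smallest standard errors of the 8 genes with counts in every group, with a Hoil1 difference of -0.20 ± 0.20 and an Il4ra difference of 0.02 ± 0.19 (log2, SE; adjusted p = 0.886 and 1.00, edgeR).

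None of the 9 genes passed for the interaction of Hoil1 and Il4ra by edgeR's quasi-likelihood test, for which 0.0% of genes passed in either fraction. In CD45+ cells 3 of the 9 were under 0.05 before adjustment, Il23r, Ltb and Ltbr, as were 7.01% of all genes. In CD45- cells 1 of the 5 tested was, Il22ra1, as were 20.7% of all genes. The Il22ra1 interaction passed by edgeR's likelihood ratio test (adjusted p = 0.0115), by DESeq2 (adjusted p = 0.00932) and, by edgeR, without CD45- Hoil1+/+Il4raΔIEC replicate 3 (adjusted p = 0.0364), where 1223, 1548 and 1199 genes passed.

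Over all 12 CD45+ libraries the sign of the Hoil1 difference turned for Il22, Il17f, Il23r, Lta, Ltb and Ltbr, and stayed for Il17a and Il22ra2, so a direction for Hoil1 held with either set of libraries only for the last 2. Of these, Il17a turned to -1.06 without CD45+ Hoil1-/-Il4raf/f replicate 2. Il22ra2 stayed between -1.83 and -1.38 when single libraries were left out.

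Of 82 other genes of these pathways, 69 entered the CD45+ tests and 64 the CD45- tests, and none passed in any genotype comparison. For the Il4ra effect 11 of 69 had an unadjusted p under 0.05 in CD45+ cells (15.9%, against 10.6% of all genes) and 7 of 64 in CD45- cells (10.9%, against 5.9%). For the interaction 14 of 69 had one in CD45+ cells (20.3%, against 7.01%) and 25 of 64 in CD45- cells (39.1%, against 20.7%). For Hoil1 in CD45+ cells 4 of 69 had an unadjusted p under 0.05 (5.8%, against 5.85% of all genes). These 4 were Il17rb, Rora, Traf3 and Iltifb. Iltifb, the near-identical neighbour of Il22, had 53, 27 and 1 counts in Hoil1+/+Il4raf/f, 77, 18 and 15 counts in Hoil1+/+Il4raΔIEC and at most 2 counts in each Hoil1-/- library, and its estimate was -3.87 ± 1.70 (log2, SE; adjusted p = 0.783, edgeR). Its highest level was 1.33 CPM, and how reads were divided between it and Il22 is not given in the sources used here. The smallest p of these was that of Il17rb, a chain of the IL-25 receptor and also a marker of type 2 innate lymphoid cells. It was between 1.03 and 15.5 CPM in the 6 Hoil1+/+ libraries and at 21.8 (removed), 148 and 22.9 CPM in Hoil1-/-Il4raf/f and 141, 97.9 and 1.02 (removed) CPM in Hoil1-/-Il4raΔIEC libraries. Among the libraries of the tests every Hoil1-/- library was above every Hoil1+/+ library, as for 0.423% of tested genes in that direction, and the removed library at 1.02 CPM breaks the pattern. The difference was 3.79 ± 0.51 (log2, SE; adjusted p = 0.0968, edgeR), and it ran from 3.06 without Hoil1-/-Il4raf/f replicate 2 to 4.15 without replicate 3 of that group, where it passed (adjusted p = 0.0174, edgeR). It also passed without the low-count filter (adjusted p = 0.0332, edgeR), by the likelihood ratio test (adjusted p = 2.17e-09) and by DESeq2 (adjusted p = 5.28e-11), and was at 3.31 over all libraries (adjusted p = 1.00, edgeR). Of the 8 markers of type 2 innate lymphoid cells, Il17rb included, 7 had an unadjusted p under 0.05, and their summed level was between 23.8 and 136 CPM in Hoil1+/+ and between 85.9 and 656 CPM in Hoil1-/- libraries; the part of these cells in the Il17rb values was not tested.

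For Hoil1 in CD45- cells 8 of 64 had one (12.5%, against 5.28%). Of these 8, Nfkbiz, Cxcl1, Socs3, Icam1, Tnfrsf14, Il6 and Cxcr6 had estimates below 0 and Retnlb had one above 0. For Cxcr6 and Il6 the estimates rest on groups at 0 counts. Cxcr6 had none in Hoil1-/- libraries and at most 5.20 CPM in Hoil1+/+ libraries. Il6 had none in Hoil1-/-Il4raf/f libraries. It was at 3.47, 8.26 and 0 CPM in Hoil1-/-Il4raΔIEC libraries, which overlapped with 0.0864 to 7.24 CPM in Hoil1+/+ libraries. Nfkbiz, a co-activator of NF-kappaB and an IL-17 target, was at -1.93 ± 0.40 and Socs3, a feedback inhibitor of STAT3, at -1.995 ± 0.51 (log2, SE; adjusted p = 0.297 and 0.494, edgeR). Nfkbiz ran from 125 to 889 CPM in Hoil1+/+ and from 26.6 to 370 CPM in Hoil1-/- CD45- libraries, and the lowest were the 2 epithelium-rich Hoil1-/-Il4raf/f libraries. Cxcl1, a neutrophil chemoattractant induced by IL-17, had no counts in these 2 libraries and was between 5.79 and 26.6 CPM in Hoil1+/+ libraries, and the other Hoil1-/- libraries, at 8.33 (removed), 11.6, 21.5 and 0.664 CPM, overlapped with those. Retnlb, an antimicrobial protein of goblet cells on the IL-22 target list, had no counts in the 6 Hoil1+/+ libraries, 8.93, 55.4 and 25.4 (removed) CPM in Hoil1-/-Il4raf/f and 2.50, 0 and 1.66 CPM in Hoil1-/-Il4raΔIEC libraries (adjusted p = 0.311, edgeR). The 2 epithelium-rich Hoil1+/+Il4raΔIEC libraries were at 173 and 125 CPM of Nfkbiz and at 12.7 and 7.79 CPM of Cxcl1. Markers of tuft cells, a chemosensory epithelial type, moved in the same test: 3 of 4 had an unadjusted p under 0.05, Trpm5, Avil and Dclk1, and Trpm5 passed by a narrow margin (2.26 ± 0.28, log2, SE; adjusted p = 0.0497, edgeR). That call was lost with RLE factors (adjusted p = 0.0523, edgeR), over all libraries (adjusted p = 1.00, edgeR) and in 9 of 11 fits that left out 1 library, with differences from 2.15 to 2.42 in those 11. Trpm5 was at 214 and 229 CPM in the same 2 Hoil1-/-Il4raf/f libraries, at most 17.01 CPM in Hoil1+/+ libraries and at most 15.7 CPM in the other Hoil1-/- libraries. The summed level of 5 tuft cell markers was 437 and 555 CPM in those 2 libraries and at most 78.2 CPM in the other 10. The part of cell makeup in these values was not tested.

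In the sort, 55 of 75 tested pathway genes passed, 40 higher and 15 lower in CD45+ cells, where over all tested genes 49.6% passed, 24.5% higher and 25.1% lower. Fewer of them, 64, entered the CD45- tests, so some entered the sort through CD45+ counts, and those calls were largely set by the filter. Of 13 type 3 lymphocyte genes, 10 were higher in CD45+ cells. Of 11 IL-22 target genes, 7 were lower, Reg3b and Reg3g among them, and S100a8 and S100a9 were higher. Reg3b was between 125 and 1706 CPM in CD45- libraries and between 2.90 and 107 CPM in CD45+ libraries. Of the alternative NF-kappaB genes, through which the lymphotoxin beta receptor signals, 6 of 8 were higher in CD45+ cells, with Birc3 at 2.93 ± 0.21 (log2, SE; adjusted p = 2.19e-08, edgeR).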

How the data were processed

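RNA was sequenced from CD45+ and CD45- ileal cells, 24 libraries in all. Per the labels and the methods, the authors used cutadapt for trimming, STAR for alignment (mm10) and featureCounts for the raw counts per gene that they deposited, without normalization. Options of the counting, strand included, are not given in the sources used here. Il22 and its near-identical neighbour Iltifb could share reads.

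Gene IDs were matched to GENCODE M21 (GRCm38) symbols, 38872 of 39056 without the version. Groups came from the genotype and cell type labels. Tests used edgeR 4.0.16 in R 4.3.3: TMM scaling, genes kept at a minimum count of 10 and total of 15, a mean for each group, quasi-likelihood tests of the Hoil1 effect, Il4ra effect and interaction in each fraction and of the sort over both, two-sided, Benjamini-Hochberg adjusted over all tested genes, threshold 0.05. Log2 levels for likeness used a prior count of 2. Exact permutation tests (scipy) used log2(CPM + 0.1) and, as an alternative, a pseudocount of 1. The fit was tested on simulated data: of genes changed by log2 3, it recovered 63.4% for Hoil1 in CD45+ cells (15914 genes), and of genes changed by log2 1, 7.37%. No libraries were duplicates. Alternatives were all libraries, RLE factors, no filter, the likelihood ratio test, DESeq2 1.42.0, removal of 423 immunoglobulin genes, and leaving out each library. The genes and lists were chosen with earlier results of these data known. Named were the 9 genes, Rbck1, Il4ra and Ptprc, from each pathway list the 3 genes with the smallest p and any that passed, the 5 most similar genes, and cell type markers; Il22ra1 was paired with Vil1 and Epcam, and Il22 with Ptprc, after their values were seen. Some genes that this rule names are not reported here.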

Additional observations from a re-analysis of the deposited data

Results flagged for a closer look

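The Hoil1 effect differed between Il4ra genotypes at an unadjusted p under 0.05 for 4 results, and no gene passed after adjustment over all genes. In CD45+ cells the interaction (Hoil1 difference in ΔIEC minus that in f/f) was 1.47 ± 0.39 for Ltbr (log2, SE; adjusted p = 0.591, 0.00381 unadjusted, edgeR), -2.02 ± 0.83 for Il23r and -1.20 ± 0.50 for Ltb (both 0.701 after adjustment, edgeR), where 7.01% of genes had an unadjusted p under 0.05 and 0.0% passed. For Ltb it was -0.44 and for Il23r -1.21 without CD45+ Hoil1-/-Il4raf/f replicate 2. In the same test 6 of 8 B cell markers had an unadjusted p under 0.05, with a median log2 value of -3.58, and 4 of 6 macrophage markers, with a median of 1.25, against -0.11 over all genes. So did 3 of 6 stromal markers, with a median of 3.22, and 3 of 8 epithelial markers, with a median of -2.97. Their part in these values was not tested. In CD45- cells Il22ra1 stood at -4.28 ± 1.18 (log2, SE; adjusted p = 0.129, 0.00407 unadjusted, edgeR), where 20.7% of genes had an unadjusted p under 0.05 and 0.0% passed. The epithelial markers Vil1 and Epcam stood at -4.11 ± 1.13 and -2.74 ± 0.82 in the same test (adjusted p = 0.129 and 0.142, edgeR), and 6 of 8 epithelial markers had an unadjusted p under 0.05. Their part in the Il22ra1 value was not tested.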

How the results depend on the processing

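Of 35 results for single genes, removal of immunoglobulin genes reversed or changed the call of none, RLE factors ended 1 call, that of Trpm5 for Hoil1 in CD45- cells, and no low-count filter added 1 call, Il17rb for Hoil1 in CD45+ cells. The likelihood ratio test added 4 calls (Il22ra2 and Il17rb for Hoil1, Il22 for Il4ra, and the Il22ra1 interaction) and DESeq2 added these and Lta for Il4ra, 5 in all. Over all libraries, the Hoil1 difference in CD45+ cells reversed to -0.42 for Il22, -0.34 for Il17f, -0.048 for Il23r, -0.17 for Lta, -0.11 for Ltb and 0.0018 for Ltbr, and the Il4ra difference of Ltbr to -0.16. With exact permutation tests over all libraries (pseudocounts 0.1 and 1) the Hoil1 difference was -1.59 and -0.94 for Il22, -0.94 and -0.19 for Il17f, -1.41 and -0.51 for Il23r, -0.82 and -0.34 for Lta, -0.57 and -0.55 for Ltb, and 0.000745 and 0.00246 for Ltbr. Leaving out single libraries gave ranges that crossed 0 for the Hoil1 difference in CD45+ cells of Il22 (-0.80 to 0.48), Il17a (-1.06 to 1.29), Il17f (-5.09 to 1.01), Lta (-0.26 to 0.62) and Ltb (-0.018 to 0.62), for the Il4ra difference of Ltbr (-0.076 to 0.12 in CD45+ and -0.12 to 0.00496 in CD45- cells), and for Il22ra1 in CD45- cells (Hoil1 -0.82 to 0.073, Il4ra -0.75 to 0.13). The Il22ra1 interaction ran from -5.64 to -3.86 and passed without Hoil1+/+Il4raΔIEC replicate 3 (-4.73, adjusted p = 0.0364, edgeR).

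Counts of genes past the threshold depended on the test. In CD45+ cells the Hoil1 count was 1, against 2 over all libraries, 6 without the filter, 103 by the likelihood ratio test and 144 by DESeq2; the Il4ra count was 1, against 0, 1, 201 and 394; and the interaction was 0, against 68 and 178 by the last tests, with 1193 genes at an unadjusted p under 0.05. In CD45- cells the Hoil1 count was 3, against 0 over all libraries, 1 with RLE factors, 135 and 208; the Il4ra count 0 (971 genes unadjusted), against 143 and 182; and the interaction 0 (3409 genes unadjusted), against 1 without the filter, 1223 and 1548. Leaving out single libraries gave 1 to 10, 0 to 8 and 0 to 0 in CD45+ cells and 1 to 173, 0 to 220 and 0 to 1199 in CD45- cells; the highest CD45- counts came without Hoil1-/-Il4raf/f replicate 2 for both effects and without Hoil1+/+Il4raΔIEC replicate 3 for the interaction. The sort gave 8472 to 9355, and of the 9 genes Il17f lost its call without CD45+ Hoil1-/-Il4raf/f replicate 2. DESeq2 moved the median log2 difference of all genes in the sort from 0.03 to -0.21, and by DESeq2 the 9 genes kept their direction and call. The causes were not tested. No paired analysis was made, because replicate numbers here follow accession order and the labels name no mouse. Ages matched between fractions in the ΔIEC groups, at 9.7, 9.7 and 9 weeks in Hoil1+/+ and 9.6, 9.6 and 9.1 weeks in Hoil1-/- mice. A fit with age as a block was not made.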
